A study of Mus musculus with 2 samples.

Results

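The tumour necrosis factor (TNF) superfamily ligands and receptors were taken as all genes whose symbol begins with Tnfsf or Tnfrsf and a number, together with Tnf, Lta, Ltb, Ltbr, Fas, Fasl, Cd27, Cd70 and Eda2r, without the BAFF and APRIL genes (Tnfsf13, Tnfsf13b, Tnfrsf13b, Tnfrsf13c and Tnfrsf17). The arrays held 35 such genes among 20659 named genes, 14 ligands and 21 receptors, read by 44 probes. Of these, 32 genes (12 ligands and 20 receptors) were measured on both arrays, meaning that a probe was well above background on each. Total RNA of glomeruli, the filtering units of the kidney, was hybridised to 2 one-colour Agilent arrays, 1 for each group. The Sirpa-/- group was male mice aged 8 months in which podocytes, the cells that wrap the glomerular capillaries, lacked Sirpa, and the WT group was wild-type males of the same age. All mice of both groups had received 0.5 ml of pristane into the peritoneum 4 months earlier, which sets off a lupus-like nephritis, and no uninjected mice were analysed here. The promoter that drove the podocyte deletion, and how many animals gave RNA to an array, are not stated in the labels.

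Ligands of the TNF superfamily act mostly as trimers on the cell surface or after shedding, and each engages 1 or a few receptors on neighbouring cells. Receptors with a death domain can start caspase signalling, and many of the others recruit TRAF adaptors and can switch on NF-kB. In kidney inflammation the family is known for TNF itself, for the TWEAK receptor of injured epithelium, and for the lymphotoxins and costimulators of infiltrating lymphocytes.

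With 1 array per group no test between the groups could be made, and every difference below is one between 2 arrays, given on the log2 scale as the array labelled Sirpa-/- less the WT array. Signals are the scanner's processed signals scaled so that the 75th percentile of gene probes equals 1000 on each array. Signals of different probes are not levels that can be ranked against each other. The only probe of Sirpa itself gave 15620 on the array labelled Sirpa-/- and 10040 on the WT array, 1.56-fold higher, which goes against the label; where the probe lies relative to the deleted part is not known, and Sirpa of other glomerular cells is intact in a podocyte deletion. All directions therefore rest on the arrays' labels. All 14 podocyte markers and all 10 glomerular endothelial markers were measured on both arrays, as were all listed markers of several blood and tubule cell types, so this count alone does not identify the tissue. The podocyte markers summed to 468500 on the array labelled Sirpa-/- and 441800 on the WT array.

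The family as a whole lay close to 0. The median difference of the 32 genes was 0.02, with quartiles of -0.16 and 0.19, beside a median of 0.0 and quartiles of -0.15 and 0.15 over all 18240 measured genes. Among the 32 genes, 0 were higher by 2-fold or more on the array labelled Sirpa-/-, where 1.57% of all measured genes were, and 1 was at least 2-fold lower, where 1.67% of all measured genes were. At the smaller size of 1.5-fold, 3 members were higher (4.35% of all genes) and 1 was lower (5.27% of all genes). The other 28 members (87.5%) differed by less than 1.5-fold, against 90.4% of all measured genes, so this pooled share was near the background. Split at the median signal of measured genes, it was not. Of 17 members at or above that signal, 82.4% differed by less than 1.5-fold, against 95.4% of all genes there. For the 15 members below it, the share was 93.3%, against 85.4% of all genes there. These shares rest on few members. Ligands had a median of 0.06 and receptors of -0.08.

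**Figure D1:**
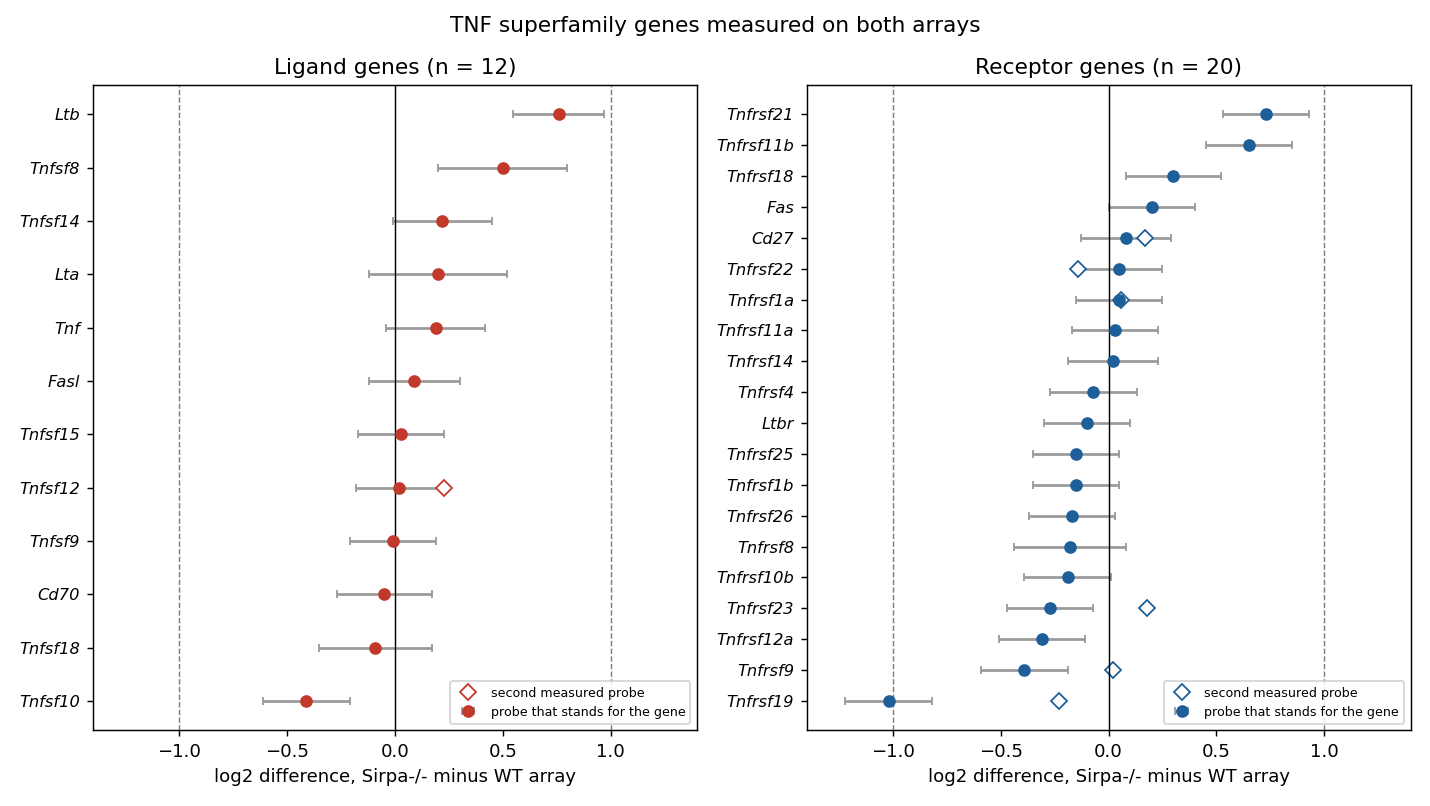
Log2 difference (array labelled Sirpa-/- less WT array, x axis) of the 12 ligand and 20 receptor genes measured on both arrays, with the scanner software's error as bars, open diamonds for a second measured probe and dashed lines at 2-fold. Ltb (0.76), Tnfrsf21 (0.73) and Tnfrsf11b (0.65) lie farthest to the right, and Tnfrsf19 (-1.02) lies past the left line on one probe and at -0.23 on the other.

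The error that the arrays themselves give is technical. The scanner software's error estimate, carried to a log2 difference, lay between 0.2 and 0.32 for the 32 genes. By this measure 22 members differed by no more than their error, and 5 by more than 2 times their error (Tnfrsf19, Ltb, Tnfrsf21, Tnfrsf11b and Tnfsf10). Over 360 probes of any gene that were spotted repeatedly, the spot variances of each array were summed. This gave a difference a median SD of 0.12. With spots paired by position on the 2 arrays, the median SD of the difference was 0.07. The 2 brightest probes of one gene gave differences that were 0.17 apart at the median over 4562 genes with several measured probes. The SD of that gap was 0.44, so some genes' probes lay much farther apart. Ltb, Tnfrsf21 and Tnfrsf11b have no second measured probe to compare. None of these values holds the spread between mice.

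Of the ligands that signal through the classical TNF and lymphotoxin receptors, Ltb stood out. Ltb encodes lymphotoxin beta, which lymphocytes place on their surface in a trimer with lymphotoxin alpha and which shapes lymphoid tissue through the receptor Ltbr. It gave 185.7 on the array labelled Sirpa-/- and 110.0 on the WT array, a difference of 0.76 ± 0.21 (software error) or 1.69-fold. Of all measured genes, 5.92% differed by at least as much in either direction. Ltb lies below the median signal of measured genes, where 85.4% of genes differed by less than 1.5-fold. Its receptor Ltbr gave 9028 on the array labelled Sirpa-/- and 9687 on the WT array (-0.1). The neighbouring genes differed less. Lta, lymphotoxin alpha, gave 11.85 on the array labelled Sirpa-/- and 10.34 on the WT array (0.2), and Tnf, the prototype inflammatory cytokine of the family, gave 33.56 on the array labelled Sirpa-/- and 29.43 on the WT array (0.19). Both of these lay within their software errors of 0.32 and 0.23.

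Markers of B cells and, less far, of T cells were also higher on the array labelled Sirpa-/-. All 11 listed B cell markers were above 0, with a median of 1.74. They summed to 4035 on the array labelled Sirpa-/- and 1166 on the WT array. Cd22 alone gave 2311 on the array labelled Sirpa-/- and 463.2 on the WT array. The 15 T cell markers had a median of 0.3, with 12 above 0, and summed to 2962 on the array labelled Sirpa-/- and 2572 on the WT array. Every marker of both lists was measured on both arrays. The 7 NK cell markers had a median of 0.29, with 5 above 0. They summed to 998.8 on the array labelled Sirpa-/- and 1047 on the WT array. Most of each NK sum came from Gzma, at 662.5 on the array labelled Sirpa-/- and 769.2 on the WT array. Markers of cells other than lymphocytes differed as well, with medians of 1.5 for 6 erythroid markers (summing to 48060 on the array labelled Sirpa-/- and 15740 on the WT array), 0.91 for 12 markers of the nephron from the loop onward (11 above 0) and -0.39 for 11 proximal tubule markers (all 11 below 0). Medians were 0.46 for 7 measured neutrophil markers (5 above 0) and 0.22 for 9 measured dendritic cell markers (6 above 0). For 13 measured macrophage and monocyte markers the median was -0.02. The part of any of these in the Ltb difference was not tested. In bulk RNA, more cells of a type and more RNA per cell cannot be told apart.

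Ltb, Tnf and Lta follow each other on mouse chromosome 17 with no other protein-coding gene between them. Because these neighbours differed unequally, their start regions are shown, each running from 250 bases before to 50 bases after the RefSeq gene start (GRCm38.p6). Capitals mark matches on either strand to the kappaB consensus, the site of NF-kB, to the GC box GGGCGG or to the TATA box TATAAA.
Ltb: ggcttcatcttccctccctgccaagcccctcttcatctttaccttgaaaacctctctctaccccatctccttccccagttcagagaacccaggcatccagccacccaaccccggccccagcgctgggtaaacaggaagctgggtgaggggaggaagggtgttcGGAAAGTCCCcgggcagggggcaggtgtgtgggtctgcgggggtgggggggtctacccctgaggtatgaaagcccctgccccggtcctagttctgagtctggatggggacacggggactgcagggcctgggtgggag
Tnf: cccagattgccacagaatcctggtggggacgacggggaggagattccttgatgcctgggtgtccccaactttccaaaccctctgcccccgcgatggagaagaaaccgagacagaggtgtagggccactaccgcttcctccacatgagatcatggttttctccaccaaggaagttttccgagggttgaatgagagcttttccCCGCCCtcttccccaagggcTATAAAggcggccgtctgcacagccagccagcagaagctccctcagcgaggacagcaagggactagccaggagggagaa
Lta: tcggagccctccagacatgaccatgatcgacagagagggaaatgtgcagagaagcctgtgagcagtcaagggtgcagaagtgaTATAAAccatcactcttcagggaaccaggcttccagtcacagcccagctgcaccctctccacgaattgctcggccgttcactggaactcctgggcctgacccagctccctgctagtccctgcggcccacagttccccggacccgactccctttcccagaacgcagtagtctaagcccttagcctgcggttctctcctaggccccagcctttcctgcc
The windows lie at chr17:35194257-35194556, plus strand, for Ltb, at chr17:35201958-35202257, minus strand, for Tnf and at chr17:35205302-35205601, minus strand, for Lta. The Ltb window held 1 match to the kappaB consensus and none to the other motifs. The Tnf window held 1 TATA box and 1 GC box, and the Lta window 1 TATA box. A match is a description of these letters only, and no match says nothing of the factor. Of 30 windows of 27 matched member genes, 13.3% held the kappaB consensus, 46.7% the GC box and 20.0% the TATA box, against 8.46%, 35.7% and 13.6% of all 32851 windows in the table.

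Repeated spots show how firm the dim values are. The Tnf probe was spotted 10 times. On the array labelled Sirpa-/- the lowest, median and highest spots were 19.85, 35.6 and 43.02, against 17.76, 35.17 and 41.15 on the WT array. Spots overlapped almost completely, and 6 of 10 were higher on the array labelled Sirpa-/- at the same position (mean 0.19, SD 0.46), so the difference of Tnf was smaller than the spread of its spots. For Lta, 9 unmarked spots ran from 9.263 over 11.44 to 15.87 on the array labelled Sirpa-/-, and from 8.693 over 10.19 to 12.46 on the WT array, with 8 of 9 higher (mean 0.21, SD 0.29). The Tnfrsf1a probe, well above the others in signal, gave a much tighter result. Its 9 spots were 16640 at the lowest, 18130 at the median and 20120 at the highest on the array labelled Sirpa-/-, against 15810, 17930 and 18590 on the WT array. All 9 were slightly higher on the array labelled Sirpa-/- (mean 0.06, SD 0.04), although the 2 sets of spots overlapped.

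**Figure D2:**
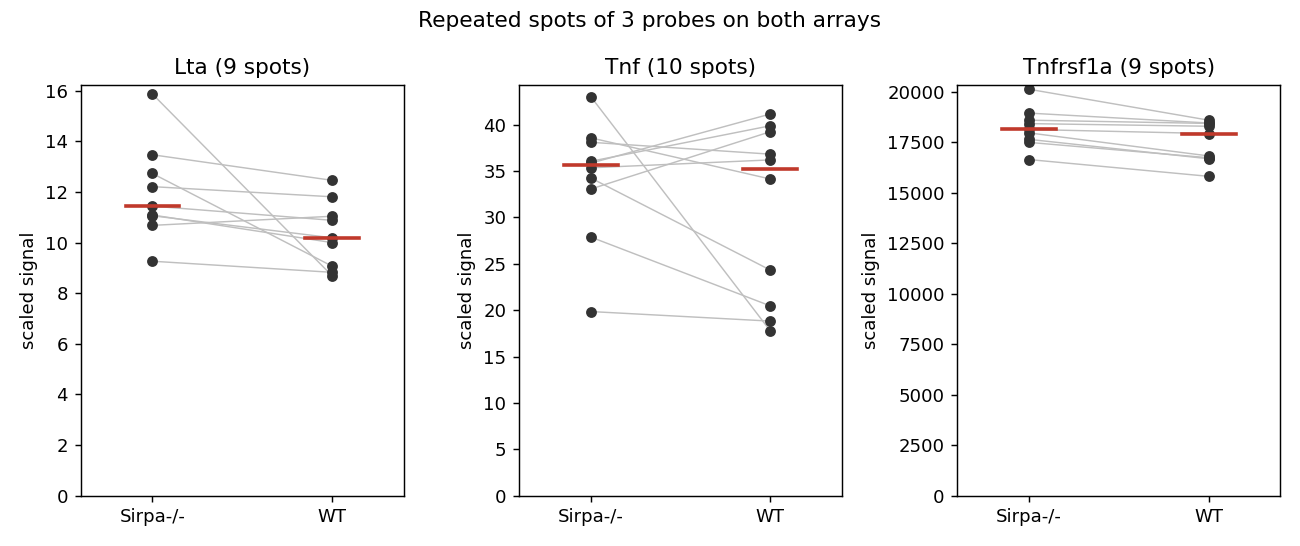
Scaled signal (y axis, linear, from 0) of each unmarked spot of the Lta, Tnf and Tnfrsf1a probes on the array labelled Sirpa-/- (left) and the WT array (right); lines join spots at the same position and red bars are medians. The Tnf median is 35.6 on the array labelled Sirpa-/- and 35.17 on the WT array, and the sets of spots overlap for all 3 genes.

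The receptors of TNF both differed by less than their software error. Tnfrsf1a encodes TNFR1, the death-domain receptor found on most cells, and gave 18090 on the array labelled Sirpa-/- and 17500 on the WT array (0.05). Its second probe gave 1367 on the array labelled Sirpa-/- and 1315 on the WT array (0.06), nearly the same difference. Tnfrsf1b, TNFR2, which lacks a death domain and binds mainly membrane TNF, gave 453.9 on the array labelled Sirpa-/- and 503.4 on the WT array (-0.15).

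Among the 5 death-domain receptors that were measured, Tnfrsf21 was the only one past 1.5-fold under the reported processing. Tnfrsf21 encodes DR6, a receptor studied in neurons and in T helper cell activation. It gave 2705 on the array labelled Sirpa-/- and 1628 on the WT array, a difference of 0.73 ± 0.2 (software error) or 1.66-fold. Of all measured genes, 6.29% differed by at least as much. Tnfrsf21 lies at or above the median signal of measured genes, where 95.4% of genes differed by less than 1.5-fold. Fas, the receptor that Fas ligand uses to kill activated lymphocytes, gave 13620 on the array labelled Sirpa-/- and 11870 on the WT array (0.2). Fasl, its ligand on cytotoxic cells, gave 49.55 on the array labelled Sirpa-/- and 46.56 on the WT array (0.09). Both stayed within their error. Tnfrsf25, the death receptor DR3 of lymphocytes, gave 976.7 on the array labelled Sirpa-/- and 1084 on the WT array (-0.15). Its ligand Tnfsf15, TL1A, which endothelial and myeloid cells can make, gave 705.1 on the array labelled Sirpa-/- and 690.9 on the WT array (0.03).

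The TRAIL system had a lower ligand signal and mixed receptors. Tnfsf10 encodes TRAIL, a ligand that can kill sensitive cells and that interferon induces. It gave 3245 on the array labelled Sirpa-/- and 4310 on the WT array, a difference of -0.41 ± 0.2 (software error), 1.33-fold lower. A difference of at least this size in either direction was found in 16.7% of all measured genes. Its death receptor Tnfrsf10b gave 743.1 on the array labelled Sirpa-/- and 849.0 on the WT array (-0.19). In the mouse, Tnfrsf22 and Tnfrsf23 encode decoy receptors that bind TRAIL without a death domain, and they sit beside Tnfrsf26 on chromosome 7. Tnfrsf22 gave 185.4 on the array labelled Sirpa-/- and 178.6 on the WT array (0.05), and Tnfrsf26 gave 957.0 on the array labelled Sirpa-/- and 1080 on the WT array (-0.17). The brighter Tnfrsf23 probe gave 1607 on the array labelled Sirpa-/- and 1941 on the WT array (-0.27). Both decoy genes turned sign on a second, dimmer probe, to -0.14 for Tnfrsf22 and 0.18 for Tnfrsf23, so neither has a direction here. The cluster's genes are related copies, and their probes may read more than 1 of them.

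Osteoprotegerin, a secreted decoy that binds both RANKL and TRAIL, was among the higher members. Its gene Tnfrsf11b gave 665.2 on the array labelled Sirpa-/- and 424.5 on the WT array, a difference of 0.65 ± 0.2 (software error) or 1.57-fold. Of all measured genes, 8.0% differed by at least as much. Tnfrsf11b too lies at or above the median signal, where 95.4% of genes differed by less than 1.5-fold. The signalling receptor of RANKL, RANK, is encoded by Tnfrsf11a and gave 434.4 on the array labelled Sirpa-/- and 425.9 on the WT array (0.03). RANKL itself (Tnfsf11) was not well above background on either array, at 1.324 on the array labelled Sirpa-/- and 3.684 on the WT array. Osteoprotegerin and TRAIL, one of its ligands, thus differed in opposite directions.

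The one member past 2-fold was the receptor gene Tnfrsf19. It encodes TROY, a receptor without a death domain that is best known from the nervous system and embryonic skin. Its brighter probe gave 557.0 on the array labelled Sirpa-/- and 1130 on the WT array. This difference of -1.02 ± 0.2 (software error), or 2.03-fold lower, was just past the threshold. Of all measured genes, 3.05% differed by at least as much. On this probe Tnfrsf19 lies at or above the median signal, where 51 of 9120 genes were at least 2-fold higher and 64 lower. Its dimmer probe gave 36.56 on the array labelled Sirpa-/- and 42.73 on the WT array, a difference of -0.23 that was about the size of its error of 0.22. Both probes carry the same transcript accession, lay on the same side and differed in size by 0.8. With the mean of both probes the difference was -0.62, and with normexp background correction -0.93, so the 2-fold call ended under each.

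The start regions of Tnfrsf21 and Tnfrsf19 are shown as the receptors with the largest difference on each side, with the same motifs in capitals.
Tnfrsf21: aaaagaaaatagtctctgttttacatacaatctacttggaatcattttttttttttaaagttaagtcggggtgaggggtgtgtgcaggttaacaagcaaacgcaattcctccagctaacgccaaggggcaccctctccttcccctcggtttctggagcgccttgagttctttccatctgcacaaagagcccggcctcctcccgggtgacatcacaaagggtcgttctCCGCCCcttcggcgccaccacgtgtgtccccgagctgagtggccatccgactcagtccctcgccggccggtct
Tnfrsf19: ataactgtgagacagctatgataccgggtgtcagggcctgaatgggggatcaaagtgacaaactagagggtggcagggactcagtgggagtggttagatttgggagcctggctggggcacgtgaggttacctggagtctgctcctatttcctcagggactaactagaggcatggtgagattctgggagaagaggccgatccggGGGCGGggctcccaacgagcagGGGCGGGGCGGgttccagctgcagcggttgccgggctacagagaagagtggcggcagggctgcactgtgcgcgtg
They lie at chr17:43016305-43016604, plus strand, for Tnfrsf21 and at chr14:61037938-61038237, minus strand, for Tnfrsf19, which has 1 more window in the table. The Tnfrsf21 window held 1 GC box and the Tnfrsf19 window shown 3, of which 2 overlap. Neither window shown held a TATA box or the kappaB consensus. The other Tnfrsf19 window, at chr14:61046806-61047105 and so upstream on the minus strand, held no match to any of these motifs. The GC boxes thus belong to 1 of the gene's 2 windows.

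**Figure D3:**
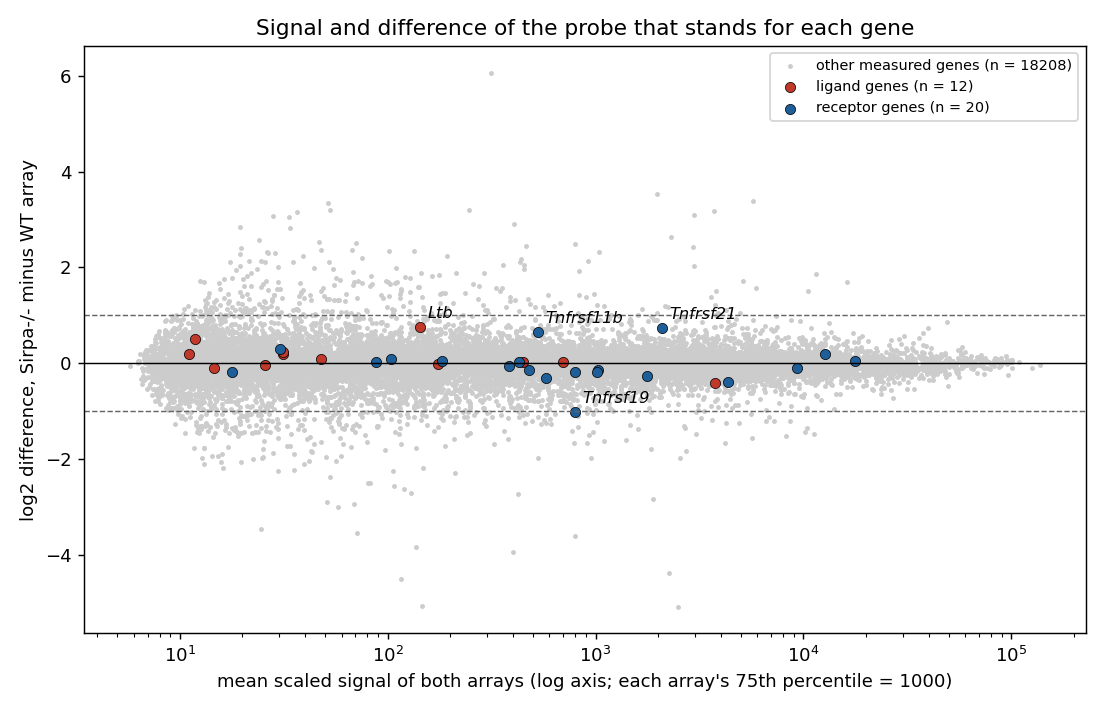
Mean scaled signal of both arrays (x axis, log) against the log2 difference, array labelled Sirpa-/- less WT array (y axis), for the probe that stands for each of 18240 measured genes, with ligands in red, receptors in blue and dashed lines at 2-fold. The 4 named members are those at least 1.5-fold apart, and the others lie in the band around 0.

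TWEAK and its receptor, a pair studied in lupus nephritis models, differed little. Tnfsf12, which encodes TWEAK, gave 452.1 on the array labelled Sirpa-/- and 444.6 on the WT array (0.02), and on its second probe 304.4 on the array labelled Sirpa-/- and 260.1 on the WT array (0.23). Tnfrsf12a encodes Fn14, the TWEAK receptor that injured epithelium induces. It gave 517.0 on the array labelled Sirpa-/- and 639.4 on the WT array, a difference of -0.31 ± 0.2 (software error), lower by 1.24-fold.

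Of the T cell costimulatory genes, none of the 6 measured ligands and none of the 7 measured receptors reached 1.5-fold, near the background, since 90.4% of all measured genes also differed by less. The ligands had a median of 0.01 and the receptors of -0.07. The widest ligand difference was that of Tnfsf8, CD30 ligand, with 14.14 on the array labelled Sirpa-/- and 10.01 on the WT array (0.5 ± 0.3, software error) at signals near the lowest signal well above background, 5.6 on the array labelled Sirpa-/- and 5.807 on the WT array. Its receptor Tnfrsf8, CD30, gave 16.82 on the array labelled Sirpa-/- and 19.02 on the WT array (-0.18). Tnfrsf18, the receptor GITR of regulatory T cells, gave 33.7 on the array labelled Sirpa-/- and 27.37 on the WT array (0.3), and its ligand Tnfsf18 gave 14.16 on the array labelled Sirpa-/- and 15.12 on the WT array (-0.09).

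Tnfrsf9 encodes CD137, a costimulator of activated T cells that other cell types can express too. Its brighter probe gave 3798 on the array labelled Sirpa-/- and 4987 on the WT array (-0.39 ± 0.2, software error), but its second probe gave 28.28 on the array labelled Sirpa-/- and 27.97 on the WT array (0.02). The lower value thus rests on 1 of 2 probes. The ligand gene Tnfsf9 gave 173.6 on the array labelled Sirpa-/- and 174.4 on the WT array (-0.01).

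The remaining costimulators lay within their software error. Tnfsf14, which encodes LIGHT, a ligand of activated T cells, gave 33.83 on the array labelled Sirpa-/- and 28.96 on the WT array (0.22). Its receptor Tnfrsf14, HVEM, gave 88.5 on the array labelled Sirpa-/- and 87.4 on the WT array (0.02), while a second Tnfrsf14 probe was not well above background on either array. Cd70 gave 25.28 on the array labelled Sirpa-/- and 26.12 on the WT array (-0.05). Its receptor Cd27, found on T cells and memory B cells, gave 107.2 on the array labelled Sirpa-/- and 101.3 on the WT array (0.08), and 0.17 on its second probe. Tnfrsf4, the receptor OX40 of activated CD4 T cells, gave 373.7 on the array labelled Sirpa-/- and 391.8 on the WT array (-0.07). The costimulatory receptors thus had a median of -0.07 beside 0.3 for the T cell markers.

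The 3 members without a measured probe were Tnfsf4, Tnfsf11 and Eda2r. Tnfsf4, the ligand of OX40, read 4.254 on the array labelled Sirpa-/- and 1.708 on the WT array. Eda2r, the receptor of ectodysplasin A2, read 6.651 on the array labelled Sirpa-/- and 2.016 on the WT array on one probe. Its other probe read 1.898 on the array labelled Sirpa-/- and 2.387 on the WT array. None of these probes was well above background on either array, so no fold is given.

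Of 21 ligand and receptor pairs listed from known binding, 18 had both genes measured. In 16 of the 18, both genes differed by less than 1.5-fold. Taken singly, 90.4% of all measured genes differed by less, so most pairs of any genes would do so too. The exceptions were Ltb with Ltbr (0.76 and -0.1) and Tnfsf10 with Tnfrsf11b (-0.41 and 0.65). Ligand and receptor had the same sign in 7 pairs and opposite signs in 11, and several pairs share a gene.

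**Figure D4:**
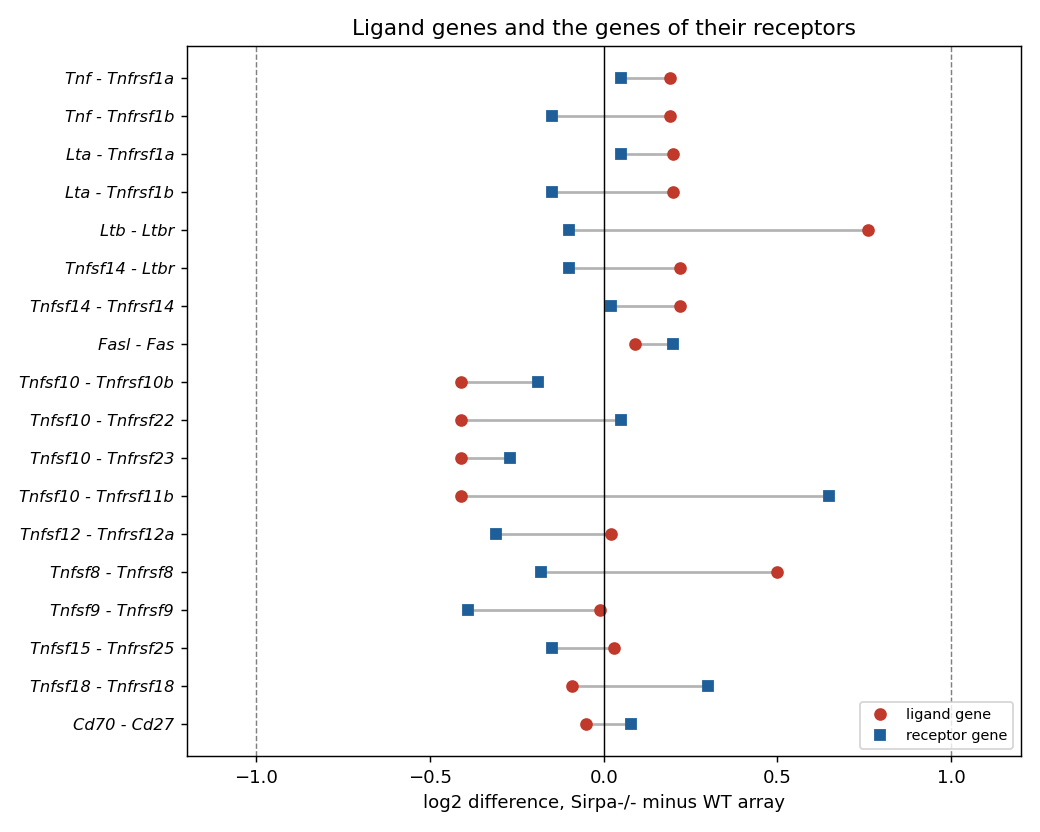
Log2 difference (array labelled Sirpa-/- less WT array, x axis) of the ligand gene (red circle) and the receptor gene (blue square) of 18 pairs with both genes measured, with dashed lines at 2-fold. The longest lines join Tnfsf10 at -0.41 with Tnfrsf11b at 0.65, and Ltb at 0.76 with Ltbr at -0.1.

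Genes that act before and after the receptors also lay close to 0 as lists. Of the 7 genes that shed or cleave the ligands, 0 were 2-fold higher or lower and the median was -0.04. Adam17, the sheddase that frees soluble TNF, had the largest difference, with 269.9 on the array labelled Sirpa-/- and 365.9 on the WT array (-0.44). Of the 27 adaptor and ubiquitin genes, 0 were 2-fold apart and the median was 0.03. The largest differences there were those of Birc3, a ubiquitin ligase of the receptor complex and NF-kB target (0.8), Tnfaip3, the NF-kB inhibitor A20 (-0.48), Traf5, an adaptor (0.46), and Ripk1, the kinase of the TNFR1 complex (0.34). Of 19 death signalling genes 18 were measured, 0 were 2-fold apart and the median was 0.03. Apaf1, the core of the apoptosome (0.34), and Casp8, the first caspase of death receptors (0.22), led that list, which also holds Fas and Tnfrsf10b.

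Target genes of TNF and NF-kB did not move together. Of 22 listed, 20 were measured and the median was -0.03. Past 2-fold were 1 higher and 1 lower gene, where 1.57% of all measured genes were higher and 1.67% lower. The higher one was Icam1, a leukocyte adhesion molecule, with 233.6 on the array labelled Sirpa-/- and 112.5 on the WT array (1.05). The lower one was Vcam1, another adhesion molecule, with 1683 on the array labelled Sirpa-/- and 4181 on the WT array (-1.31, and -0.91 on its second probe). The chemokine Ccl5 (0.81) and the cytokine Il6 (-0.61, at signals of 10.03 on the array labelled Sirpa-/- and 15.32 on the WT array) followed. Of the 8 genes listed as targets of lymphotoxin and the alternative NF-kB route, 6 were measured and all 6 lay below 0, with a median of -0.16 and 0 at 2-fold. That common side depended on the processing: with normexp Nfkb2 was at 0.19 and Madcam1 at 0.01, and Ccl19 was at 0.04 with the mean of its probes and 0.15 with its dimmer probe. Cxcl13, the B cell chemokine induced through Ltbr, gave 4763 on the array labelled Sirpa-/- and 7986 on the WT array (-0.75), on the opposite side to Ltb. Cxcl12, a stromal chemokine, gave -0.6. Among 5 measured family members outside the rule, 0 were 2-fold apart, and Cd40 had the largest difference (-0.67).

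**Figure D5:**
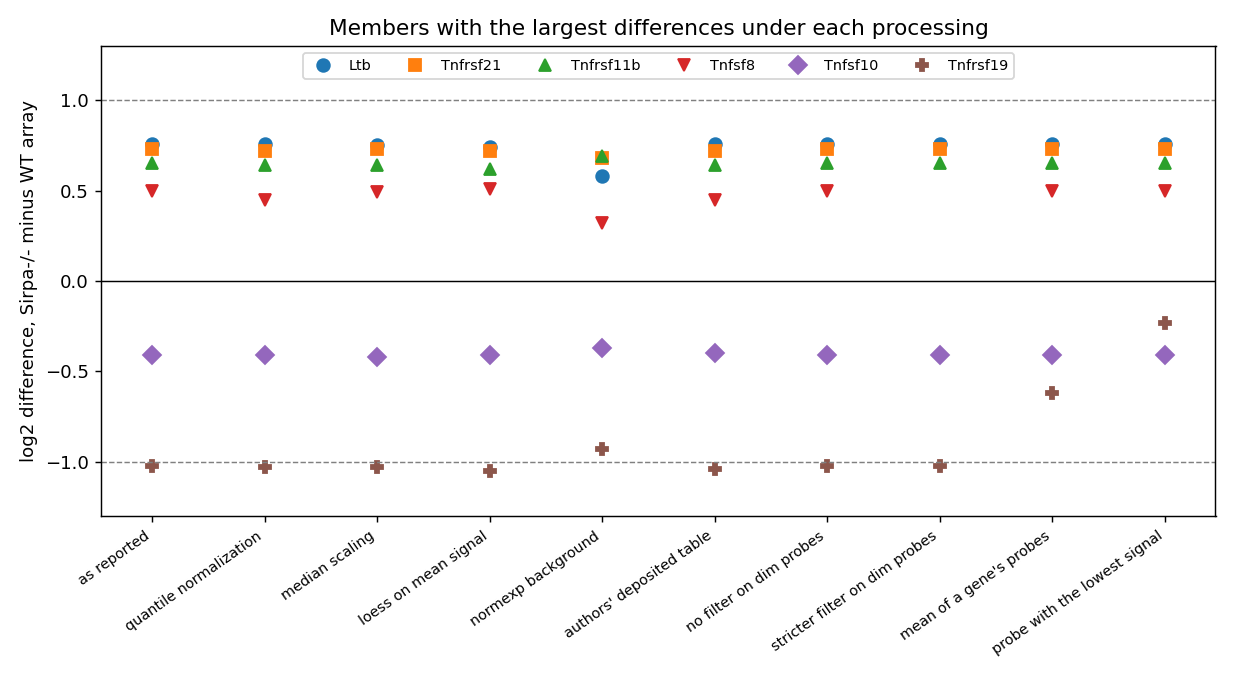
Log2 difference (array labelled Sirpa-/- less WT array, y axis) of 6 members under the reported processing and 9 alternatives (x axis), with dashed lines at 2-fold; Tnfsf8 has no point under the stricter filter. Ltb stays between 0.58 and 0.76, while Tnfrsf19 reaches -0.62 with the mean of its probes and -0.23 with its dimmer probe.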

How the data were processed

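Glomerular RNA of 2 groups, 1 array each on slide 1, was analysed. Per the file headers, the deposited intensity values were extracted with Agilent Feature Extraction 11.0.1.1 as background-subtracted signals without normalization between arrays, while the submitters' processing notes name version 9.1. Other columns hold quality flags of 0 or 1, per the file headers. A table of log2 values that the authors deposited for the same probes served as an alternative; the labels do not say how it was made. From the intensities, log2 was taken, unmarked spots of a probe were averaged and each array's 75th percentile over 39429 gene probes (1109 for Sirpa-/- and 1158 for WT) was subtracted. A probe was kept with over 50% of its spots well above background on both arrays. Symbols came from RefSeq accessions (27234 probes matched, GRCm38.p6 gene table; the array design names an older build). The kept probe with the highest mean signal stood for a gene. Differences were sized at 2-fold, with no test, since the number of arrays limits the precision. Every member was named; of the lists, up to 4 genes with the largest differences and all past 2-fold. Members and lists were chosen with earlier results of these data known. The scaling and calling steps were tested on simulated data. No column of another sample was used. Tools were Python 3.11.15, pandas 2.3.3, statsmodels 0.14.6, R 4.3.3 and limma 3.58.1, with normexp (offset 50) run on median spot and background signals because the files give no mean spot signal.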

Additional observations from a re-analysis of the deposited data

How the results depend on the processing

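Under the 9 alternatives that bear on a median (the other changed only the fold threshold of counts), the family's median stayed between -0.04 and 0.09, the ligands' between 0.02 and 0.17 and the receptors' between -0.1 and -0.03, and 0 values of any member or list past 2-fold reversed. The count of members at least 2-fold lower, 1 as reported, was 0 with normexp, with the mean of a gene's probes and with the probe of lowest signal, and 2 with no filter on dim probes, which adds Tnfsf11. The count at least 2-fold higher, 0 as reported, was 2 with no filter, which adds Eda2r and Tnfsf4, and 3 with a threshold of 1.5-fold. That threshold gave 1 higher adaptor gene, 2 higher and 2 lower TNF and NF-kB targets, 2 lower lymphotoxin targets and 1 lower gene outside the rule. Over all measured genes it gave 4.35% higher and 5.27% lower. With normexp the TNF and NF-kB targets had a median of 0.1 and 0 genes 2-fold higher (Icam1 at 0.83), and the median of all genes was 0.07. With the probe of lowest signal 0 of those targets were 2-fold lower. With no filter 1 lymphotoxin target was 2-fold lower. Except where a filter or probe choice sets the count by construction, the cause was not tested. Of all genes past 2-fold, 48.5% were higher as reported and 58.9% with normexp (113 higher and 79 lower). Of 287 values of single genes, 14 moved by more than the technical spread of 0.12, among them Ltb (0.58) and Tnfsf8 (0.32) with normexp, and Tnfrsf9 (0.02) and Tnfrsf23 (0.18) with the dimmer probe. Dim signals limit Lta, Tnfsf8, Tnfsf18 and Tnfrsf8, whose software errors were 0.26 to 0.32, and other dim members such as Cd70, Tnfsf14 and Tnfrsf18. For repeated probes, the median SD from the summed spot variances was 0.3 below the median signal and 0.1 at or above it. With spots paired by position it was 0.24 and 0.05. No paired analysis was possible because each group has 1 array.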
